A study of Mus musculus with 8 samples.

Results

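The genes of MHC class I and class II antigen presentation were examined in the mouse auditory nerve. The 10 members were chosen by gene symbol for their known roles, 5 for each class, and all 10 were found among the 15035 genes of the table. Class I is represented by the heavy chains H2-K1 and H2-D1, the light chain B2m, the peptide transporter subunit Tap1 and the loading chaperone Tapbp (tapasin). Class II is represented by H2-Aa, H2-Ab1 and H2-Eb1, the invariant chain Cd74 and the peptide exchange factor subunit H2-DMa. Auditory nerves, which hold the spiral ganglion neurons with their axons and glia, were dissected from mouse cochleas at postnatal day 21 and measured by bulk RNA sequencing. Of 8 libraries, 4 came from wild-type mice (libraries 1 to 4) and 4 from mice labelled as heterozygous for Mef2c, a gene for a MADS-box transcription factor (libraries 5 to 8). Each library was made from the 2 cochleas of a single mouse. The kind of Mef2c allele, the strain, the sex and the litter were not given in the sources used here.

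Class I molecules sit on nearly all nucleated cells and show peptides cut from proteins of the cell itself to CD8 T cells. The peptides are pumped into the endoplasmic reticulum by the Tap1 and Tap2 transporter and loaded with the help of tapasin onto a heavy chain paired with beta-2 microglobulin. Class II molecules are made mainly by macrophages, dendritic cells and B cells, and show peptides from engulfed material to CD4 T cells. Their alpha and beta chains are held by the invariant chain until H2-DM helps a peptide to replace its remnant. In nerve and in the cochlea, resident macrophages are the best known carriers of class II.

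Of the members, 8 lie in the MHC on mouse chromosome 17, and B2m and Cd74 lie outside it, on chromosomes 2 and 18. By the GENCODE M21 annotation on GRCm38, the assembly also called mm10 that the submitters' processing notes list, H2-K1 spans 33996017 to 34000347 on the minus strand. Tapbp spans 33915899 to 33929292 and H2-DMa 34119541 to 34139101, both on the plus strand. Tap1 spans 34187553 to 34197225, and the class II chains follow, with H2-Ab1 at 34257689 to 34269419, H2-Aa at 34282744 to 34287823 on the minus strand and H2-Eb1 at 34305867 to 34316674. H2-D1 lies at the far end of the cluster, at 35262730 to 35267499. B2m spans 122147686 to 122153083 on chromosome 2. Exons of Tap1 overlap exons of Psmb9, those of H2-DMa overlap exons of Brd2, and those of Tapbp overlap exons of Zbtb22. Whether the counting used the strand was not given in the sources used here. Psmb9 and Brd2 lie on the opposite strand, so reads there may be shared if it did not. Zbtb22 lies on the same strand as Tapbp, so reads there may be shared with either setting. The class I heavy chains also resemble each other. Of the 50-base words in the longest coding transcript, 8.79% for H2-K1 and 14.3% for H2-D1 occurred in a transcript of another gene, among them H2-Q1, H2-Q6, H2-Q7 and H2-T23, so small amounts of reads could be assigned to the wrong heavy chain. For B2m and all 5 class II members the share was 0%.

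Promoter stretches of 4 members are shown because the 2 classes are known for different upstream elements. The RefSeq promoter table on GRCm38.p6 held windows for 8 of the 10 members. Positions are counted back from the first transcribed base, and capitals mark the matches named after each pair of lines. The H2-K1 stretch, chr17:34000353-34000472 on the minus strand, and the B2m stretch, chr2:122147542-122147661 on the plus strand, stand for class I.
H2-K1: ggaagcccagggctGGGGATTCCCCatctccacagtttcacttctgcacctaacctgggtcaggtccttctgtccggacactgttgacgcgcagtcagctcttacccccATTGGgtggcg
B2m: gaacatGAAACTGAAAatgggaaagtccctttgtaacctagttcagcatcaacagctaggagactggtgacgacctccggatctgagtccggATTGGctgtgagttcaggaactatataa
In H2-K1 the first run of capitals is the class I enhancer A, GGGGATTCCCC, searched with its middle letter free, at position -111, and the second is the Y box, searched as ATTGG. In B2m the first run is the core of the interferon-stimulated response element, searched as GAAA, any 2 letters and GAAA, at position -139, and the second is the Y box. The H2-Aa stretch, chr17:34287849-34287968 on the minus strand, and the H2-Eb1 stretch, chr17:34305722-34305841 on the plus strand, stand for class II.
H2-Aa: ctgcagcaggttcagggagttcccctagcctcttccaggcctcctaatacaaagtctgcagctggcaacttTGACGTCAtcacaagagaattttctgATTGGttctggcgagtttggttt
H2-Eb1: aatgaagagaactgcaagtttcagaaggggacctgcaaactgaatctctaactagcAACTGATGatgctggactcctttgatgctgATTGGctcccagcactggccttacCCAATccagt
In H2-Eb1 the capitals mark the X box core, searched as AACNGATG, at position -89, and 2 Y box matches on opposite strands. In H2-Aa they mark TGACG matched on both strands, which overlap there, and the Y box. TGACG was added to the search after the windows had been seen, and its matches in H2-K1 and B2m are left in lower case. All motifs were sought on both strands in the 250 bases before the start. The enhancer A letters occurred in 2 of the 8 members with a window, H2-K1 and H2-D1, and in 0.0457% of 32851 windows of all genes. In H2-D1 the same letters stand at position -171. The X box core occurred in 1 member and in 1.98% of windows, the response element core in 1 member and in 2.98%. A Y box match, a short and common word, occurred in 8 members and in 33.8% of windows, and TGACG in 5 members and in 17.8%. The MEF2 site, named for the family of the targeted gene, was found in 0 of the 8 members and in 2.92% of windows. These matches describe letters only.

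The libraries were checked first. The estimated depth lay between 13363056 and 21507345 reads per library. The neuronal marker Nefh, a neurofilament chain, was abundant, at 36654.2 to 63296.0 normalized counts. Mef2c itself was at 438.6, 498.4, 508.7 and 402.2 normalized counts in wild type. It was higher in the libraries labelled heterozygote, at 583.3, 704.9, 735.1 and 649.8. Its log2 fold change was 0.53, and the limma-trend adjusted p was 0.186. With the kind of Mef2c allele not given, these counts cannot tell whether the labels hold. Every direction below is therefore between libraries as labelled. Wild-type library 1 and library 5, labelled heterozygote, were low in Xist, at 12 and 7.6 normalized counts against 5175.3 to 8615.3 elsewhere. Wild-type library 1 stood apart from the rest, being the highest of the 8 in 26.1% and the lowest in 27.6% of all tested genes, and results that rest on it are given with and without it.

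No member passed the test between genotypes. With limma-trend on log2(value + 1) and Benjamini-Hochberg adjustment over 14870 tested genes, 0 of the 10 members had an adjusted p under 0.05, against 0.0807% of all tested genes. At an unadjusted p under 0.05 the count was also 0 of 10, against 14.1% of all genes (6.72% with a positive and 7.34% with a negative fold change). The genotypes overlapped in all 10 members, while they did not overlap in 7.26% of all genes. In the authors' deposited table, 0 of the 10 members had an FDR under 0.05, against 1.61% of its 15024 genes with a value, and the lowest FDR among the members was 0.394, for H2-Eb1. The 5 class I members all had a positive log2 fold change, with a median of 0.087, and the 5 class II members a negative one, with a median of -0.22. The median over all tested genes was 0.015, with the middle 50% of genes between -0.17 and 0.19, and 52.3% of genes were positive. Because the tissue is a mixture, fewer cells of a type and less RNA per cell cannot be told apart in these values.

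**Figure D1:**
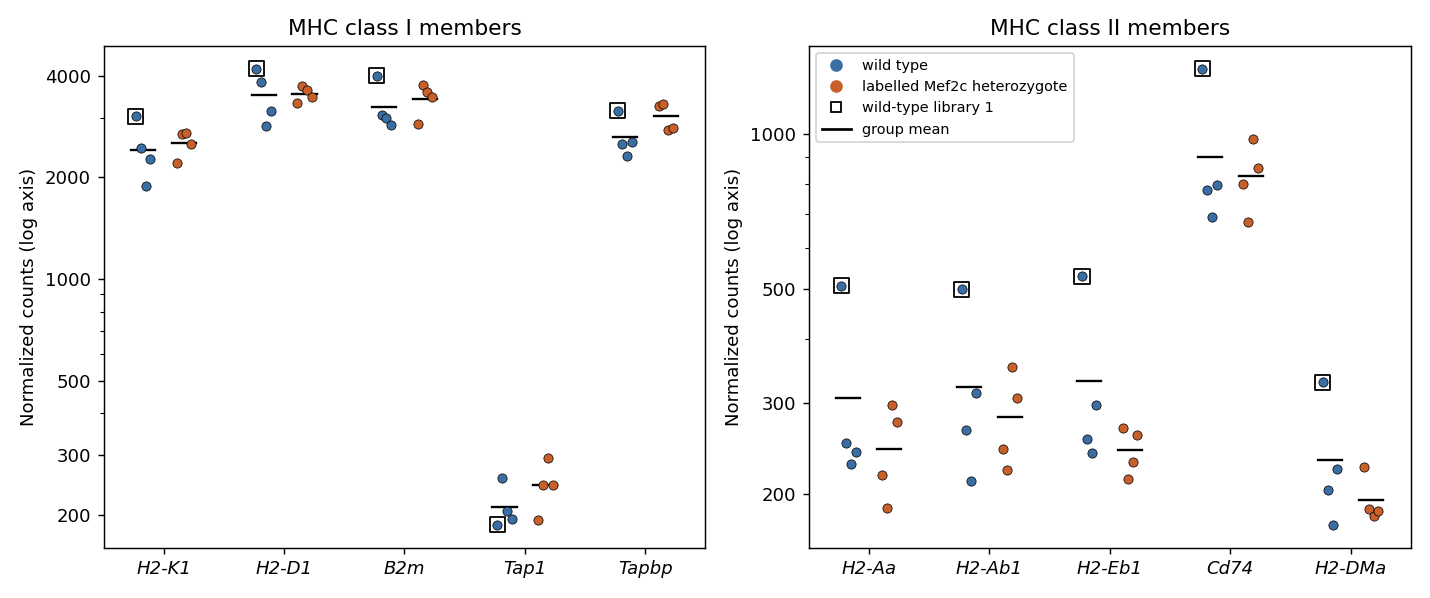
Normalized counts of the 10 members on a log axis, with 1 point per library, blue for wild type and orange for the libraries labelled heterozygote, a line at each group mean and a square around wild-type library 1. In all 5 class II members the squared point lies above every other point, while for H2-K1, H2-D1 and B2m it is the highest point by a smaller margin and for Tap1 the lowest.

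Among the class I members, the classical heavy chain H2-K1 had 3030.3, 2434.2, 1885.5 and 2266.0 normalized counts in wild-type libraries 1 to 4. In libraries 5 to 8, labelled heterozygote, it had 2199.6, 2675.9, 2712.1 and 2514.7. The group of labelled heterozygotes lay inside the wild-type range. H2-K1 differed by 0.087 ± 0.134 on the log2 scale (estimate and standard error), with a 95% confidence interval of -0.21 to 0.38, and its limma-trend adjusted p was 0.781. H2-D1, the other classical heavy chain, had 4189.5, 3816.9, 2833.9 and 3146.9 normalized counts in wild type and 3314.1, 3718.1, 3634.6 and 3458.0 in the libraries labelled heterozygote. Again the second group fell within the range of the first, with a standard deviation of 180.8 against 617.6 normalized counts. The log2 fold change of H2-D1 was 0.030, with an interval of -0.23 to 0.29. Both heavy chains were highest in wild-type library 1 and lowest in wild-type library 3. The ratio of H2-K1 to H2-D1 counts ran from 0.638 to 0.746 over the 8 libraries, so both followed each other from mouse to mouse.

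B2m, the light chain shared by classical and class I-like molecules, had 3994.5, 3054.1, 2998.3 and 2859.0 normalized counts in wild type. The libraries labelled heterozygote had 2866.5, 3759.7, 3578.2 and 3444.8. Except for library 5, the latter were above the wild-type libraries 2 to 4 and below library 1. For B2m the log2 fold change was 0.086 (interval -0.18 to 0.35), and its limma-trend adjusted p was 0.761. Tapbp, which bridges the heavy chain to the peptide transporter, had 3147.7, 2513.4, 2311.6 and 2540.6 normalized counts in wild type and 3252.8, 3294.4, 2765.5 and 2791.4 in the libraries labelled heterozygote. Of the wild-type libraries only the first reached into the range of the other group. Its log2 fold change of 0.21 (standard error 0.11, interval -0.035 to 0.45) had the smallest unadjusted p of the members, 0.0865, and the limma-trend adjusted p was 0.405. Tap1, a subunit of the peptide transporter, was the exception among the class I members, since wild-type library 1 was the lowest of the 8. It had 186.9, 257.9, 205.3 and 194.5 normalized counts in wild type and 193.3, 245.7, 295.0 and 245.7 in the libraries labelled heterozygote, a log2 fold change of 0.21 with an interval of -0.19 to 0.61.

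The class II members shared another pattern: 1 wild-type library stood above all others, and the remaining 7 overlapped. Wild-type library 1 was the highest in 26.1% of all tested genes. In all 5 class II members and 0 class I members it was at least 1.3 times the next highest library, as in 6.58% of all tested genes. The factor of 1.3 was not planned beforehand. The class II members move together by library, so they are not 5 separate observations. H2-Aa, an alpha chain, reached 507.4 normalized counts in wild-type library 1, beside 251.5, 228.2 and 241.6 in the other wild-type libraries. It had 217.2, 188.2, 297.8 and 275.7 in the libraries labelled heterozygote. The first library was 2.11 times the mean of the other wild-type libraries. Between genotypes H2-Aa differed by -0.27 ± 0.26 on the log2 scale (estimate and standard error), with an interval of -0.83 to 0.30, and its limma-trend adjusted p was 0.641. H2-Ab1, the beta chain that pairs with H2-Aa, had 499.6, 266.5, 211.7 and 314.0 normalized counts in wild type and 244.4, 222.2, 352.5 and 307.5 in the libraries labelled heterozygote. Here library 7 lay above 3 of the wild-type libraries and below library 1, and library 8 above 2 of them. The log2 fold change of H2-Ab1 was -0.15, with an interval of -0.69 to 0.40.

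H2-Eb1, the beta chain of the second class II molecule, had 529.5, 255.5, 240.2 and 298.3 normalized counts in wild type. In the libraries labelled heterozygote it had 268.3, 213.5, 230.9 and 260.7. The alpha chain of that molecule, H2-Ea, had no value, so these counts speak for the H2-Eb1 transcript only. H2-Eb1 had the most negative log2 fold change of the members, -0.37 (standard error 0.23, interval -0.88 to 0.14), and its limma-trend adjusted p was 0.476. Cd74, the invariant chain and the most abundant of the class II members per length, had 1338.0, 779.1, 689.3 and 794.8 normalized counts in wild type and 799.5, 674.4, 979.1 and 857.0 in the libraries labelled heterozygote. Leaving library 1 aside, 3 of the 4 libraries labelled heterozygote were above every wild-type library. The log2 fold change of Cd74 was -0.084, with an interval of -0.50 to 0.34. H2-DMa, which helps to exchange the invariant chain remnant for a peptide, had 329.6, 203.4, 174.2 and 223.5 normalized counts in wild type and 225.9, 187.3, 180.9 and 185.6 in the libraries labelled heterozygote. Its values among the latter were close together apart from library 5. H2-DMa had a log2 fold change of -0.22, with an interval of -0.67 to 0.24.

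**Figure D2:**
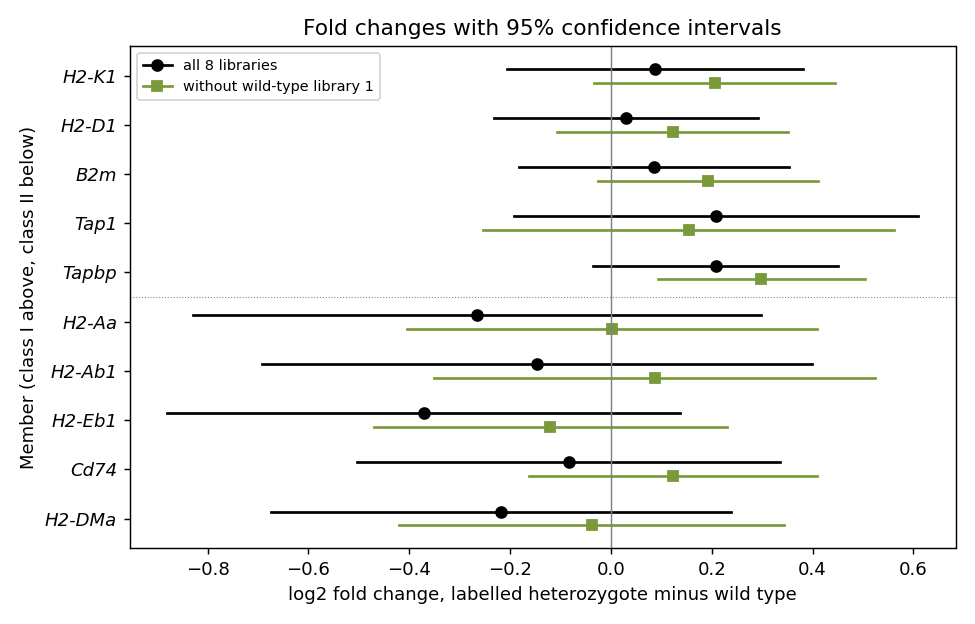
Log2 fold change of each member, libraries labelled heterozygote minus wild type, with its 95% confidence interval from limma-trend, for all 8 libraries (black circles) and without wild-type library 1 (green squares). All 10 black intervals span 0, and every green class II value lies to the right of its black value.

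Wild-type library 1 decided the direction of 3 class II members. Without it the log2 fold change of H2-Aa was 0.0028, of H2-Ab1 0.087 and of Cd74 0.12, and the limma-trend adjusted p was 0.996, 0.886 and 0.723. H2-Eb1 and H2-DMa kept a negative value, at -0.12 and -0.038. None of the 10 members passed, against 0.108% of all genes. The class II median was then 0.0028, beside a median of -0.0018 over 14784 tested genes. The class I median was 0.19 without that library and 0.087 with it, and all 5 class I members stayed positive. Tapbp then had non-overlapping genotypes, as 10.4% of all genes did, and a log2 fold change of 0.30 (interval 0.092 to 0.50). Its unadjusted p was 0.00830, as 11.9% of all genes had one under 0.05, and its limma-trend adjusted p was 0.263, so it did not pass. Without both libraries low in Xist, the unadjusted p was under 0.05 for 3 class I members, B2m (log2 fold change 0.275), H2-K1 (0.27) and Tapbp (0.26), and for 0 class II members, against 13.6% of all genes. The limma-trend adjusted p of these 3 was 0.243, 0.324 and 0.308, and 0 of the 10 members passed, against 0.0611% of all genes.

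Summed over their 5 members, class II transcripts came to 3204.1 normalized counts in wild-type library 1 and to 1485.6 to 2041.2 in the other 7 libraries. The class I sum was 14548.9 in that library and 10234.6 to 13693.8 in the others, a smaller gap. The ratio of the class I to the class II sum was 4.54, 6.88, 6.63 and 5.88 in wild type and 6.74, 9.22, 6.36 and 6.60 in the libraries labelled heterozygote. It was lowest in wild-type library 1 and highest in library 6, and the other 6 libraries lay between 5.88 and 6.88. Cd74 was 2.53 to 3.27 times the H2-Ab1 count over the 8 libraries, and 2.68 times in wild-type library 1. The ratio of H2-Eb1 to H2-Ab1 was 0.848 to 1.13 in 7 libraries and 0.655 in library 7, where H2-Ab1 was high and H2-Eb1 was not.

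Per kilobase of the longest annotated transcript, levels could be set against each other across genes. In wild type, B2m was the highest at 3752 ± 603 normalized counts per kilobase (SD, n = 4), followed by H2-D1 at 1664 ± 294, H2-K1 at 1283 ± 254 and Tapbp at 907 ± 125. Cd74 came next at 639 ± 210. In this order the SDs of H2-D1 and H2-K1 overlapped, as did those of Tapbp and Cd74 and, narrowly, those of H2-K1 and Tapbp, while B2m stood clear. These SDs give the spread over mice, not the order within a mouse. Within every library H2-D1 stood above H2-K1 per kilobase. Below Cd74 came H2-Ab1 at 266 ± 103, H2-Eb1 at 198 ± 81, H2-DMa at 116 ± 34 and H2-Aa at 95 ± 42 normalized counts per kilobase, neighbours that overlapped within their spread. Of these, H2-Ab1 stood above H2-Eb1 per kilobase within every library. Tap1 was the lowest at 54.0 ± 8.2. The place of H2-Aa rests on the transcript chosen: over its longest coding transcript of 1128 bases, in place of 3223, it was 272 ± 119, level with its partner H2-Ab1. The libraries labelled heterozygote gave the same order, from B2m at 3968 ± 449 to Tap1 at 62.6 ± 10.6 normalized counts per kilobase (SD, n = 4).

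Cell types that carry class II were read from marker lists. Of 16 macrophage and microglia genes, all in the table, 9 were highest in wild-type library 1, against 26.1% of all tested genes. The sum of the 16 was 9660.5 normalized counts there and between 5616.9 and 8445.5 elsewhere. The most abundant were Lyz2 (lysozyme), Csf1r (the receptor for macrophage growth factor) and C1qa (a complement subunit). C1qa was at 1409.4 normalized counts in wild-type library 1 and at 725.1 to 1028.1 elsewhere, and Csf1r 1277.0 against 910.3 to 1064.6. Lyz2 had 1932.4 there, but library 7 was higher at 1962.0. All 16 were above 0 in every library. None of the 16 passed 0.05 with limma-trend after adjustment. At an unadjusted p under 0.05, 1 was higher and 2 were lower (6.72% and 7.34% of all genes). The higher one was Tmem119 (log2 fold change 0.61), and the lower ones were P2ry12 (-0.63) and Trem2 (-0.78). The median log2 fold change of the 16 was -0.11, or -0.040 without wild-type library 1. The dendritic cell list had 7 of 10 genes in the table, 3 of them highest in wild-type library 1. Its sum was 624.3 normalized counts there and 685.0 to 947.9 in the others, led by Flt3, Zbtb46 and Siglech. Flt3 makes up most of this sum. By the mean log2 deviation, which weights genes equally, wild-type library 1 was the highest of the 8 for this list, at 0.46. Of the 6 tested genes 3 had a positive and 3 a negative log2 fold change, with a median of -0.086. Siglech, which this list counts as a dendritic cell gene, was at 53.2 to 92.1 normalized counts in wild type. It was at 21.7 to 47.9 in the libraries labelled heterozygote, and its limma-trend adjusted p was 0.266. Which cells carried Siglech was not tested. B cell markers in the table were few, and none passed. Cd79a, a part of the B cell receptor, was at 9.1 to 24.2 normalized counts in wild type and at 26.1 to 59.1 in the libraries labelled heterozygote, with no overlap. Its log2 fold change was 1.19, its unadjusted p 0.0226 and its limma-trend adjusted p 0.299. Ebf1, also made by other cells, had 1473.0 to 1999.0. Of the T and NK cell list, 1 of 10 genes was in the table, Cd4, at 13.0 to 57.5 normalized counts. Among glia, 5 of 6 oligodendrocyte genes did not overlap between genotypes, against 7.26% of all tested genes. The median log2 fold change of the list was -1.35. Mog and Mobp, of central myelin, had log2 fold changes of -1.41 and -1.47. Their limma-trend adjusted p was 0.0354 and 0.0495, under 0.05 as in 0.0807% of all tested genes. With wild-type library 2 or 4 or library 8 left out, no gene passed. The part of any of these cells in the values of either class was not tested.

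**Figure D3:**
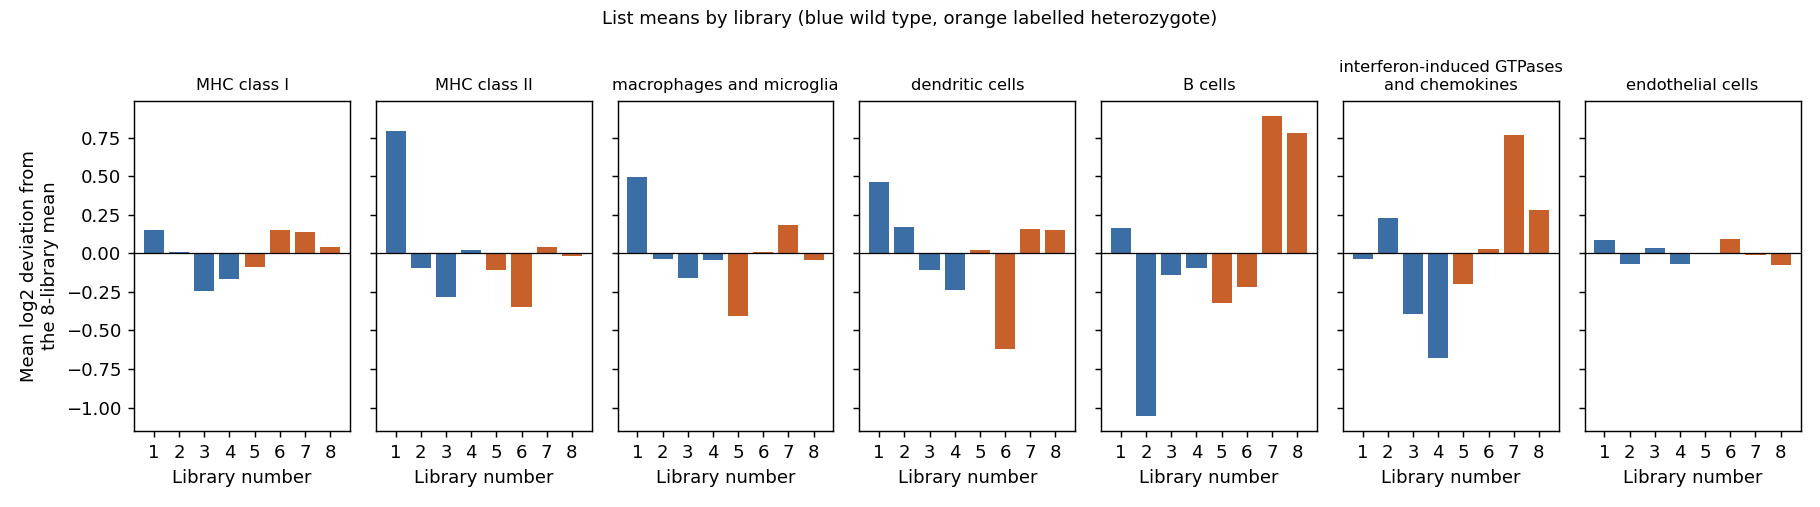
Mean log2 deviation of each gene list from its 8-library mean, 1 bar per library, blue for wild type and orange for the libraries labelled heterozygote. The class II bar of wild-type library 1 stands at 0.79, and the macrophage and microglia bar of that library at 0.49, while the class I bars run from -0.24 to 0.15.

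The wider class I pathway showed no gene past the threshold. Of 22 other class I and class I-like chains, 16 had a value, of which 9 had a positive and 7 a negative log2 fold change, with a median of 0.13. Without wild-type library 1, 13 of the 16 were positive, with a median of 0.14. H2-Q6, a class Ib chain, had the smallest p. It had 60.8, 37.5, 53.5 and 65.8 normalized counts in wild type and 79.9, 92.1, 115.6 and 101.2 in the libraries labelled heterozygote, with no overlap. Its log2 fold change was 0.84, its unadjusted p 0.00946 and its limma-trend adjusted p 0.266. H2-Q6 shares sequence with other heavy chains, so its counts are uncertain. The next smallest p values belonged to H2-K2 and Cd1d1, with log2 fold changes of -0.659 and -0.663 and limma-trend adjusted p of 0.433 and 0.518. Of 12 genes of peptide supply and loading, 2 had a positive value and 10 a negative one, with a median of -0.047. Without wild-type library 1, 5 of the 12 were positive, with a median of -0.029. At an unadjusted p under 0.05, 1 of the 12 was lower, as 7.34% of all genes were. Calreticulin (Calr), a lectin chaperone of the loading complex, did not overlap between genotypes, with 7951.8 to 9680.1 normalized counts in wild type and 5998.8 to 7933.2 in the libraries labelled heterozygote. Its log2 fold change was -0.36 and its limma-trend adjusted p 0.266. Pdia3, the thiol oxidoreductase of the same complex, and Psme2, an activator subunit of the proteasome, followed with log2 fold changes of -0.19 and -0.37 and limma-trend adjusted p of 0.371 and 0.491.

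Of 20 further symbols on the class II list, 11 had a value. March1 and Marchf1 are 2 symbols of 1 gene, with a value under Marchf1 only. Ciita, the class II transactivator, had no value. Cd86 and Cd83, which are counted here, are activation molecules and not parts of class II. The 11 had 5 positive and 6 negative log2 fold changes and a median of -0.055. This sign rests on wild-type library 1: without it 7 of the 11 were positive, with a median of 0.057. Lgmn, an endosomal protease that trims the invariant chain, had 3293.9 to 4188.0 normalized counts in wild type and 2946.0 to 3224.9 in the libraries labelled heterozygote, with no overlap. Its log2 fold change was -0.26, its unadjusted p 0.0144 and its limma-trend adjusted p 0.278. Rfx5, a subunit of the factor that binds the X box, had a log2 fold change of 0.30, and its limma-trend adjusted p was 0.362. Cathepsin S (Ctss), the protease of the late invariant chain cut, had -0.41 and 0.443. None of these 3 passed. H2-DMb1, the partner of H2-DMa, was at 293.3 normalized counts in wild-type library 1 and at 181.3 to 225.3 in the rest, so it shared the high value of that library.

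The interferon gamma route, the best known inducer of both classes, was read from 2 lists. Ifng itself and the chemokines Cxcl9 and Cxcl10 of these lists had no value. The list of interferon-induced GTPases cannot tell interferon gamma from type I interferon. Of 8 genes for the interferon gamma receptors, kinases and factors with a value, 5 were positive and 3 negative, with a median log2 fold change of 0.13. Without wild-type library 1, 6 were positive, with a median of 0.049. Jak1, a receptor kinase, and Irf1, a transcription factor, had the smallest p, with log2 fold changes of 0.22 and 0.26 and limma-trend adjusted p of 0.391 and 0.409. All 13 interferon-induced GTPase genes with a value had a positive log2 fold change, against 52.3% of all tested genes. Their median was 0.43, and 0 passed after adjustment. These genes moved largely together over the libraries, so their signs are not separate observations. Leaving out wild-type library 1, 12 of the 13 were positive, with a median of 0.52. At an unadjusted p under 0.05 there were 2 of these 13, both higher, against 6.72% of all genes in that direction. They were Gbp7, with no overlap and a log2 fold change of 0.84, and Gbp3, with 0.53, and their limma-trend adjusted p was 0.236 and 0.344. Tgtp1 followed with 0.90 and 0.365. Their sum was 5134.2 normalized counts in library 7 and 1989.9 to 3835.7 in the others, so this list, unlike class II, was not high in wild-type library 1, where it was 3003.0. Of 13 type I interferon response genes, 12 were positive, with a median of 0.45, and 11 without wild-type library 1, with a median of 0.39. The sum of this list was also highest in library 7, at 7987.4 normalized counts. Irf7 had 1.15, Oasl2 0.61 and Bst2 0.39, with limma-trend adjusted p of 0.313, 0.405 and 0.426. The neutrophil list had 4 of its 9 genes in the table, and none passed with limma-trend, the lowest adjusted p being 0.0763. At an unadjusted p under 0.05, 3 of the 4 were higher in the libraries labelled heterozygote, and these 3 did not overlap between genotypes, as 7.26% of all genes did not. The summed level of all 4 overlapped: it was 106.3 to 2346.4 normalized counts in wild type and 649.1 to 6030.2 in the libraries labelled heterozygote. This overlap rests on wild-type library 1, where Ltf alone had 2176.4 normalized counts, against 29.0 to 237.4 in the other wild-type libraries. Without that library the wild-type sum was 106.3 to 364.8, below every library labelled heterozygote. The most abundant were Ltf, Ngp and S100a9. Of these, S100a9 had 29.0 to 54.1 against 111.5 to 1688.7, and its limma-trend adjusted p was 0.0920. Their part in the class I and interferon values was not tested. Endothelial genes, another source of class I, had a median of 0.040 over 6 genes, led by Cldn5, Flt1 and Cdh5.

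**Figure D4:**
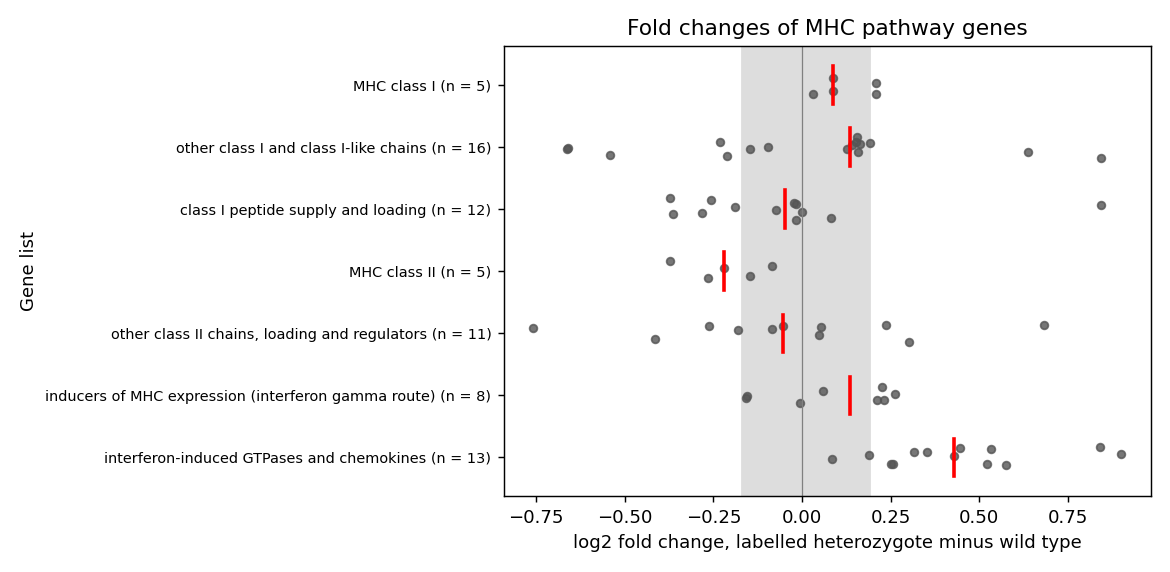
Log2 fold changes, libraries labelled heterozygote minus wild type, with 1 point per tested gene in each list, a red line at the list median and a grey band for the middle 50% of all tested genes. The class I median, 0.087, lies inside the band and the class II median, -0.22, below it, and the 13 interferon-induced GTPase genes all lie above 0.

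Genes with a like pattern over the 8 libraries were ranked among 13346 tested genes with a mean of at least 50 normalized counts. Likeness was the Pearson r with the mean standardized profile of the 5 members of a class, given as a description. For class I the closest were Rab43 (r = 0.987), Ccnd3 (0.961), Emilin1 (0.960), Nt5dc2 (0.954), Mybbp1a (0.951) and Tmem164 (0.945). Without wild-type library 1 these values were 0.930 to 0.987. For class II the closest were Fkbp7 (r = 0.975), Utp11 (0.973), Ptn (0.970), Phf1 (0.961), Rps25 (0.960) and Echdc2 (0.955). Without wild-type library 1 these were 0.612 to 0.821, so the likeness to class II rested largely on that library. Fkbp7, a chaperone of the endoplasmic reticulum, was at 586.6 normalized counts there and at 240.2 to 323.5 elsewhere. None of the 16 macrophage and microglia genes was among the 6 closest to class II. A place outside the closest 6 of 13346 genes does not bear on macrophages as a source of class II, which was not tested.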

How the data were processed

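Poly(A) RNA was taken from 50 ng of total RNA for strand-specific sequencing, and an RNA integrity number of at least 7 was required, per the labels' protocols. The submitters' processing notes list STAR, Partek and DESeq2 with the build mm10. The step each tool was used for, the annotation and the strand setting were not given in the sources used here. For each sample the authors deposited a signal column of normalized counts to 1 decimal, which, judged from the values, are gene counts scaled by a factor of the sample. Their table also holds, per the file headers, the p-value and FDR, the ratio with log2 beside it, and a fold change with a sign. That last column is a deposited score and was left unused. To estimate what 1 read is worth, the step was sought that makes most values of a sample whole multiples, within 0.06. Between 88.1% and 91.7% of values were whole multiples, under the 95% set for recovered reads, so no count test was run.

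A gene was tested if 4 or more libraries had 10 or more normalized counts. The test was limma-trend (limma 3.58.1, R 4.3.3) on log2(value + 1), with the 8 libraries and no covariate, and p-values were adjusted by Benjamini and Hochberg, with 0.05 as the threshold. A fold change on that scale understates the change of low genes. The fit was tested on simulated data. Other steps used Python 3.11.15 (numpy 2.4.6, pandas 2.3.3, matplotlib 3.10.9). Named genes were the members, the 3 genes with the smallest p of each pathway list, the 3 most abundant of the marker lists, the 6 most alike per class, Mef2c and Xist, and others were chosen after their values were seen. A few genes that this rule names are not reported here. Members and lists were chosen with earlier results of these data known. Alternatives were pseudocounts of 0.1 and 10, other filters, quantile and upper-quartile scaling, low Xist as a covariate or those libraries left out, and each library left out. The comparison of overlap without wild-type library 1 was added after the data had been seen.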

Additional observations from a re-analysis of the deposited data

Results flagged for a closer look

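In 26 sets of 4 values, 1 member or class measure in 1 genotype each, the most extreme library was compared with the remaining ones. A library stood far apart in 4 sets, where about 1 in 20, or 1.3, would come by chance if the sets were separate. They are not, since members move together by library and the class measures are made from the members. The count of 4 therefore shows no excess. H2-Aa in wild type had a gap of 0.917 of the whole range, because library 1 had 507.4 normalized counts against 228.2 to 251.5. Cd74 in wild type had a gap of 0.837, with library 1 at 1338.0 against 689.3 to 794.8. Among the libraries labelled heterozygote, H2-DMa had a gap of 0.858, with library 5 at 225.9 normalized counts against 180.9 to 187.3. The class I mean deviation minus the class II mean deviation had a gap of 0.836 in that group, with library 6 at 0.50 on the log2 scale against 0.022 to 0.10.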

How the results depend on the processing

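None of the 10 members passed 0.05 with limma-trend under any of the 16 alternatives. B2m, Tap1, Tapbp, H2-Eb1 and H2-DMa kept their direction in all 16. H2-Aa, H2-Ab1 and Cd74 turned positive without wild-type library 1 (0.0028, 0.087 and 0.12) and without both libraries low in Xist (0.052, 0.15 and 0.14), and Cd74 also without library 6 (0.010). H2-D1 turned negative without wild-type libraries 3 or 4 (-0.066 and -0.015) and H2-K1 without library 3 (-0.023). With each library left out in turn, the log2 fold change ran from -0.38 to 0.0028 for H2-Aa, from -0.32 to 0.087 for H2-Ab1, from -0.20 to 0.12 for Cd74, from -0.066 to 0.12 for H2-D1 and from -0.023 to 0.21 for H2-K1. The class I median then ran from 0.055 to 0.19 and the class II median from -0.34 to 0.0028, and without both libraries low in Xist the class I median was 0.26 and the class II median 0.052. The count of all genes past the threshold, 12, was 7 with quantile normalization and ran from 0 to 221 with a library left out. It was 221 without wild-type library 3, 0 without wild-type libraries 2 or 4 or library 8, 7 without library 5 and 6 without library 7. The cause of these changes was not tested. No paired analysis was possible because the groups share no replicate numbers. With 4 mice a group, intervals of the class II members span up to 1.13 on the log2 scale.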

Other observations

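Subunits of the immunoproteasome, which cuts peptides for class I, were also high in wild-type library 1. All genes here but Psme2 were picked with their values in view. Psmb10 reached 789.0 normalized counts there, beside 371.2 to 596.5 elsewhere, and Psmb8 had 347.8 against 138.4 to 290.3. The proteasome activator subunit Psme1 had 851.3 against 315.3 to 531.5, and Psme2 had 367.5 against 153.3 to 215.6. Psmb9, another inducible subunit, was highest in library 7, at 90.5 normalized counts against 75.3 in wild-type library 1. Nlrc5, the transactivator of class I genes, was lowest in wild-type library 1, at 11.7 normalized counts, and highest in wild-type library 2, at 74.9. Fcgrt, the class I-like receptor that carries antibodies and albumin, was at 4422.9 normalized counts in wild-type library 1 and at 2606.9 to 3502.7 elsewhere. No explanation was tested for these values.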
